A study of Mus musculus with 6 samples.

Results

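Transcripts of 7 genes for Mx proteins and for factors that act against viruses at the cell membrane (Mx1, Mx2, Ifitm1, Ifitm2, Ifitm3, Bst2 and Ly6e) were compared in mouse embryonic fibroblasts (MEFs) with and without the protease YME1L. The genes were taken by name from the deposited table of raw fragment counts, where each was found as 1 of 51499 loci. YME1L works in the mitochondrial inner membrane, and the study started from the open question of why its loss leads to inflammation, with interferon-stimulated genes among its readouts. RNA of 3 wild-type (WT) and 3 knockout cultures was sequenced, and all cells were SV40-immortalized MEFs, with the genotype Yme1l fl/fl in WT and Yme1l-/- in the knockout. Per the study's methods, both genotypes were grown up as individual clones after transduction of floxed MEFs with Cre recombinase, so that differences between clones and effects of genotype cannot be told apart. The libraries held between 33180867 and 49351107 counted fragments, and the 3 WT libraries were all smaller than the 3 Yme1l-/- libraries. WT replicate 2 stood apart from the other WT libraries over the whole table, with a chi-square per degree of freedom of 32.7 and 35.2 against WT replicates 1 and 3, which were at 12.04 between themselves. Likewise, Yme1l-/- replicate 1 was at 19.8 and 15.6 against Yme1l-/- replicates 2 and 3, which were at 7.91 between themselves. Yme1l1, the targeted gene, had 6327, 6292 and 5968 fragments in WT and 1327, 1963 and 2067 in Yme1l-/-, in the direction of the labels.

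Type I interferon binds the receptor IFNAR, which signals through the kinases JAK1 and TYK2 to ISGF3, a transcription factor complex that includes STAT2 and IRF9. ISGF3 binds a DNA element, the interferon-stimulated response element (ISRE), near the start of its target genes. Mx proteins are dynamin-like GTPases that block viral nucleocapsids inside the cell. In many laboratory mouse strains Mx1 and Mx2 do not give functional proteins, and the deposited table lists Mx2 as a polymorphic pseudogene. IFITM proteins sit in the plasma membrane and endosomes and hinder the fusion of viral with cellular membranes. Bst2 encodes tetherin, which holds budding virions on the cell surface, and Ly6e encodes a GPI-anchored surface protein that impairs the entry of coronaviruses.

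Start regions were available in RefSeq (GRCm38.p6, the build of the deposited files) for 4 of the genes, Ifitm1, Ifitm2, Ifitm3 and Bst2. They are shown because Ifitm3 and Bst2 rose and the Ifitm2 locus, in the same cluster as Ifitm3, was not called, and Ifitm1 is given as the remaining gene of that cluster described here. Each window runs 5′ to 3′ from 250 bases before to 50 bases after the start of transcription. Capitals mark matches to the core of the ISRE, the letters GAAA and GAAA with 2 bases of any kind between them, or to a longer form in which the letters CT follow the core, both searched on either strand.
Ifitm3 (chr7:141010695-141010994, minus strand): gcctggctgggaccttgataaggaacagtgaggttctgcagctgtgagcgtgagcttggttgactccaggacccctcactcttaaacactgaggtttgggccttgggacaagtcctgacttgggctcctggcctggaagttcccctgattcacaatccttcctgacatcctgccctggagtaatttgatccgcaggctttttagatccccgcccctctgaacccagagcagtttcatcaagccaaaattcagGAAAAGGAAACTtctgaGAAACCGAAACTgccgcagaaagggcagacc
Bst2 (chr8:71537423-71537722, minus strand): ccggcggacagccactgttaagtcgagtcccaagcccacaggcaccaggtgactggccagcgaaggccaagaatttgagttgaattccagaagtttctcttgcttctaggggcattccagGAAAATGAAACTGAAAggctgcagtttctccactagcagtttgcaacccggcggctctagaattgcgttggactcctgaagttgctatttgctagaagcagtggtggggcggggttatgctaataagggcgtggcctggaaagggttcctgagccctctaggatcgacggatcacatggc
Ifitm2 (chr7:140955912-140956211, minus strand): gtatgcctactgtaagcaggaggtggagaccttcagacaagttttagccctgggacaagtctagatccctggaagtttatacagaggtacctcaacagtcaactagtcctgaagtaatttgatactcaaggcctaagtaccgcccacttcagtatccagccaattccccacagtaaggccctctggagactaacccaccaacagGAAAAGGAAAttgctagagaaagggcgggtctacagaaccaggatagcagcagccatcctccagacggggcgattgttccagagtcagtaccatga
Ifitm1 (chr7:140967826-140968125, plus strand): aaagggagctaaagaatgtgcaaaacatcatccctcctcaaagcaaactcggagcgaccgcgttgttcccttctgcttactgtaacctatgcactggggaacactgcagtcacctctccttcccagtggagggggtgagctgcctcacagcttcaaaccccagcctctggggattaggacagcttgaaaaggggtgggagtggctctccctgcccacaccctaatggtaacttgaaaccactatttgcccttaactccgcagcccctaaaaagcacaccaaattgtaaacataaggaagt
Every match lay on the strand of the gene. The core was found in 3.44% and the longer form in 0.271% of 32851 windows of the same length, and each match to the longer form also counts as a core match. Ifitm3 held 2 cores, GAAAAGGAAA and GAAACCGAAA, and both were part of the longer form. Bst2 held the overlapping cores GAAAATGAAA and GAAACTGAAA, of which the first was part of the longer form. Ifitm2 held 1 core, GAAAAGGAAA, at which the longer form was not matched, and Ifitm1 held neither. A match is a string of letters and was not tested for binding, and the absence of a match says only that these letters are not in this window.

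Between the genotypes, 4 of the 6 genes that could be tested rose in Yme1l-/- MEFs and the other 2 were nearly level. Mx2 rose 7.65-fold, Ifitm3 3.44-fold, Mx1 3.35-fold and Bst2 3.01-fold, while Ifitm2 and Ly6e, which were abundant in both genotypes, stayed within 1.11-fold at the upper end of their 95% intervals. Ifitm1 was close to the limit of detection and was not tested. Calls were made at an adjusted p under 0.05 (edgeR, quasi-likelihood; Benjamini-Hochberg over 13867 loci). Of these loci, 33.6% were called higher, 34.1% lower and 67.7% in either direction, so a call alone does not set these genes apart. All 4 genes that rose did so at least 2-fold, which was the case for 9.1% of the loci tested. The median log2 fold change was 1.67 over the 6 genes and -0.00 over all loci. This median includes Mx1 and Mx2, which passed the filter on low counts only through their Yme1l-/- libraries. With at least 10 counts in every sample, 4 genes were tested, Ifitm2 at 0.03, Ly6e at 0.04, Bst2 at 1.59 and Ifitm3 at 1.79. The libraries did not overlap, with Yme1l-/- above WT, for Mx1, Mx2, Ifitm3 and Bst2 and for 35.9% of all loci tested, and 71.9% of loci did not overlap in either direction.

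**Figure D1:**
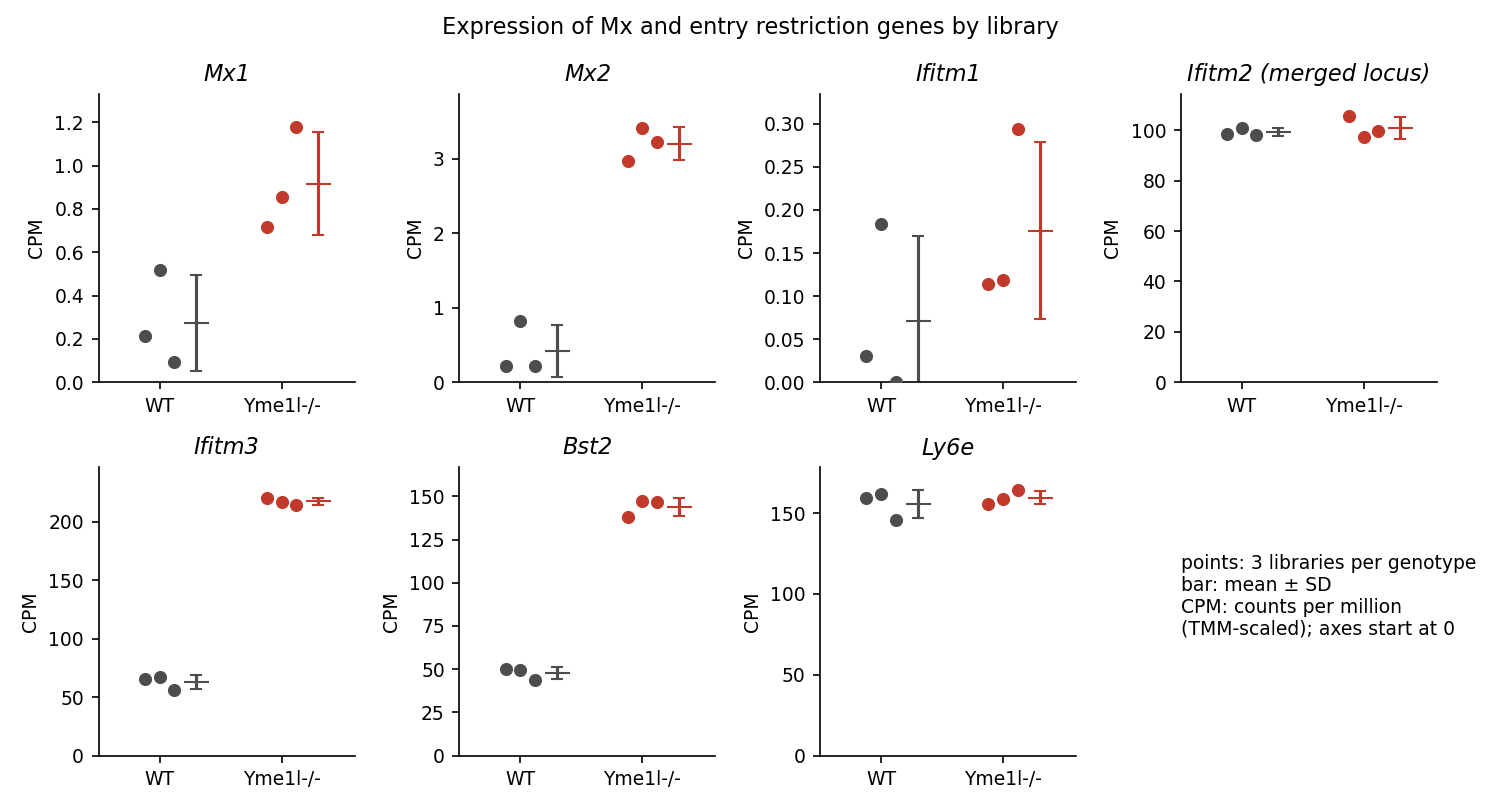
Expression of the 7 genes in CPM (counts per 1e6 fragments, TMM-scaled; linear axes from 0) in each of 3 WT (grey) and 3 Yme1l-/- (red) libraries, with the mean ± SD beside the points. For Mx1, Mx2, Ifitm3 and Bst2 all Yme1l-/- libraries lie above all WT libraries, whereas the points overlap for Ifitm1, Ifitm2 and Ly6e.

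Among the membrane factors, Ifitm3 (chromosome 7, 141009586 to 141010770, minus strand) encodes the family member that protects cells from influenza virus and other viruses that enter through endosomes. In WT libraries it had 65.4, 67.4 and 56.5 CPM (counts per 1e6 fragments), and in Yme1l-/- libraries 220.3, 217 and 215 CPM. The lowest Yme1l-/- library was thus far above the highest WT library. The means were 63.1 ± 5.81 and 217 ± 2.80 CPM (SD, n = 3), and the log2 fold change was 1.78 ± 0.06 (SE; edgeR adjusted p = 1.05e-09), a change above that of about 95.6% of loci. The 95% interval of the fold change ran from 3.13 to 3.79.

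Bst2 (chromosome 8, 71534255 to 71537456, minus strand) had 50.2, 49.7 and 43.7 CPM in WT and 138, 147 and 147 CPM in Yme1l-/-. No WT library came near the Yme1l-/- libraries. From means of 47.9 ± 3.60 and 144 ± 5.23 CPM (SD, n = 3), the log2 fold change was 1.59 ± 0.06 (SE; edgeR adjusted p = 1.85e-09), with a 95% interval of the fold from 2.74 to 3.30. Tetherin is also a known surface marker of plasmacytoid dendritic cells. Of 11 markers of immune cells, 7 had at most 3 fragments in every library, Siglech, Cd3e, Adgre1 and Nkg7 had none, and the pan-leukocyte gene Ptprc had at most 1. The myeloid genes Itgam and Csf1r had higher means in Yme1l-/-, with 0.101 ± 0.0348 and 0.368 ± 0.175 CPM for Itgam and 0.102 ± 0.0470 and 0.309 ± 0.0905 CPM for Csf1r (SD, n = 3, WT first), and were too low to be tested. The summed level of the 11 markers was 0.398 to 0.519 CPM in WT and 0.714 to 0.864 CPM in Yme1l-/-. The part of immune cells in the value of Bst2 was not tested.

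Ifitm2 (chromosome 7, minus strand), a close relative of Ifitm3 in sequence and function, was counted in a locus merged with Ifitm5 and Gm45717 (140948958 to 140955987), whose fragments cannot be divided among the genes. Ifitm5 is known for its expression in bone-forming cells. The locus had 98.5, 101 and 98.1 CPM in WT and 106, 97.3 and 99.7 CPM in Yme1l-/-. The libraries of the genotypes overlapped, and the means, 99.2 ± 1.55 and 101 ± 4.29 CPM (SD, n = 3), differed by less than the spread in Yme1l-/-. The log2 fold change was 0.02 ± 0.05 (SE; edgeR adjusted p = 0.666), with a 95% interval of the fold from 0.947 to 1.09.

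Ifitm1 (chromosome 7, 140967221 to 140969825, plus strand) lies between these genes, and its product acts mainly at the plasma membrane. Fragment counts were 1, 6 and 0 for WT and 4, 6 and 15 for Yme1l-/-, the equivalent of at most 0.294 CPM. These counts overlapped between the genotypes. In a library, 3 fragments corresponded to between 0.0589 and 0.0919 CPM. When tested without the filter on low counts, the log2 fold change was 1.3 ± 0.74 (SE; edgeR adjusted p = 0.159).

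Ratios between the Ifitm loci were compared next. A ratio within a library does not depend on how libraries are scaled. The log2 ratio of Ifitm2 to Ifitm3 fragments was 0.59, 0.58 and 0.80 for WT, compared with -1.06, -1.16 and -1.11 for Yme1l-/-. Ifitm2 fragments outnumbered Ifitm3 fragments in each WT library, and the order was turned in each Yme1l-/- library. The mean log2 ratio fell by 1.76 (SE 0.08), with p = 0.1 in the exact permutation test (two-sided), which is the smallest value that 3 against 3 libraries allow, and 0.2 adjusted over 4 ratios examined. Ifitm3 supplied 38.8% ± 1.96 of the fragments of the 3 loci in WT and 68.3% ± 0.730 in Yme1l-/- (SD, n = 3), while their summed level went from 162 ± 7.13 to 318 ± 6.59 CPM (SD, n = 3). The ratios with Ifitm1 rest on its few fragments. For Ifitm1 over Ifitm3 the mean log2 ratio differed by -0.06 (SE 1.09, exact permutation p = 1.0), and for Ifitm1 over Ifitm2 by 1.71 (SE 1.14, exact permutation p = 0.3). The latter was 2.67 without WT replicate 2 and 0.84 without WT replicate 3.

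**Figure D2:**
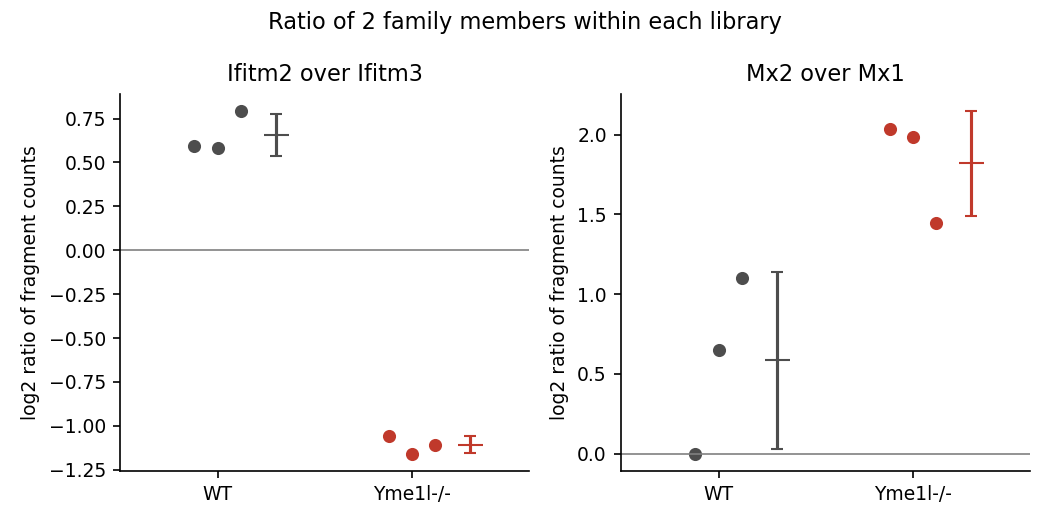
Log2 ratio of fragment counts of Ifitm2 over Ifitm3 and of Mx2 over Mx1 within each library, with 0.5 counts added to each gene; points are the 3 libraries of a genotype and bars the mean ± SD. The Ifitm2 to Ifitm3 ratio lies above 0 in WT and below 0 in Yme1l-/-, and the Mx2 to Mx1 ratio is higher in Yme1l-/-.

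Ly6e (chromosome 15, 74955051 to 74959905, plus strand) had 159, 162 and 146 CPM in WT and 156, 159 and 164 CPM in Yme1l-/-. The genotypes overlapped. The means were 156 ± 8.79 and 160 ± 4.21 CPM (SD, n = 3), and the log2 fold change was 0.04 ± 0.05 (SE; edgeR adjusted p = 0.533), with a 95% interval of the fold from 0.951 to 1.11. Loci of chromosome 15 had a median log2 fold change of 0.59. With the median of each chromosome removed, Ly6e was called lower, at -0.56 ± 0.05 (SE; edgeR adjusted p = 2.45e-06, where the other alternatives gave 0.102 to 0.868). The fold change of Ly6e was thus near 1 and below the median fold change of its chromosome. The part of the chromosome in this value was not tested.

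The Mx genes (chromosome 16) were scarce in both genotypes. Mx2 (97535308 to 97560900, plus strand) had fragment counts of 7, 27 and 7 for WT and 104, 172 and 164 for Yme1l-/-, or 0.211, 0.825 and 0.214 CPM against 2.97, 3.41 and 3.22 CPM. Every Yme1l-/- library was above every WT library, and WT replicate 2 was the highest of the WT libraries. From means of 0.417 ± 0.353 and 3.20 ± 0.220 CPM (SD, n = 3), the log2 fold change was 2.94 ± 0.38 (SE; edgeR adjusted p = 6.64e-05), with a 95% interval of the fold from 4.26 to 13.7. Mx1 (97447035 to 97462907, minus strand) had 7, 17 and 3 fragments in WT and 25, 43 and 60 in Yme1l-/-, or 0.211, 0.519 and 0.0919 CPM against 0.714, 0.853 and 1.18 CPM. The groups did not overlap here either, and WT replicate 2 again held the most fragments of the WT libraries. From means of 0.274 ± 0.220 and 0.915 ± 0.238 CPM (SD, n = 3), the log2 fold change was 1.74 ± 0.44 (SE; edgeR adjusted p = 0.0046), with a 95% interval of the fold from 1.70 to 6.61. Without WT replicate 2 the log2 fold changes were 3.89 for Mx2 and 2.58 for Mx1. They were 2.62 and 1.59 without WT replicate 1, and 2.62 and 1.33 without WT replicate 3. The size of both changes thus depended on the WT libraries used, and their direction did not.

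Both Mx genes rose, with Mx2 ahead. The log2 ratio of Mx2 to Mx1 was 0.58 ± 0.55 in WT and 1.82 ± 0.33 in Yme1l-/- (SD, n = 3), higher by 1.24 (SE 0.37), and the libraries did not overlap (exact permutation p = 0.1, the smallest possible, and 0.2 over 4 ratios). The sequences of the Mx transcripts share few stretches. Of the distinct 100-base windows in GENCODE transcripts, 0.929% of those of Mx1 also occur in Mx2 and 1.13% of those of Mx2 in Mx1. For Ifitm1, Ifitm3, Bst2 and Ly6e no such window was found in a transcript of another gene. For Ifitm2 the share was 34.9%, with Gm45717 of the same merged locus and with Gm8865 and Gm11951, and with none of the other genes described here.

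**Figure D3:**
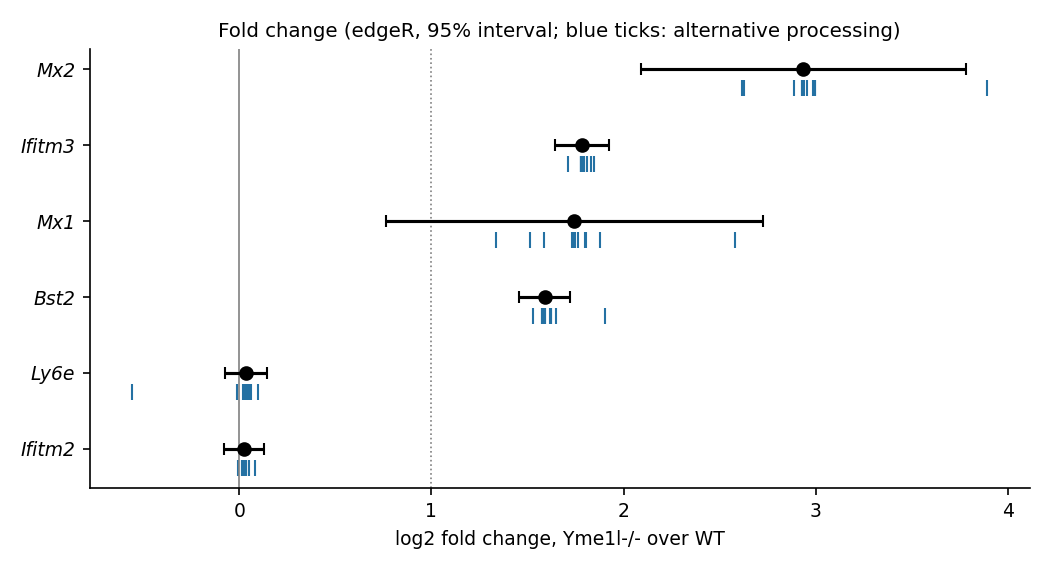
Log2 fold change of the 6 tested genes (Yme1l-/- over WT) with 95% intervals (black) and the values under alternative processing (blue ticks); solid and dotted lines mark no change and a 2-fold increase. Mx2, Ifitm3, Mx1 and Bst2 lie above 0 in each fit, and the leftmost tick of Ly6e, at -0.56, is the fit with chromosome medians removed.

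To set the levels of the genes beside each other, a scale per transcript length is needed. The authors' combined FPKM values for WT were 207 for the Ifitm2 locus, 186 for Ly6e, 125 for Ifitm3, 77.0 for Bst2, 0.261 for Mx2, 0.136 for Ifitm1 and 0.106 for Mx1. In Yme1l-/- they were 431 for Ifitm3, 231 for Bst2, 209.8 for the Ifitm2 locus, 188 for Ly6e, 1.67 for Mx2, 0.373 for Ifitm1 and 0.345 for Mx1. Ifitm3 and Bst2 thus moved from below to above Ifitm2 and Ly6e on this scale, and the Mx genes and Ifitm1 stayed far below. These values carry no error. Per kilobase of all annotated exons of a locus, which gives longer lengths for Ly6e (3784 bases) and for the merged Ifitm2 locus (1420 bases), the WT order was Ifitm3 at 93.1 ± 8.57, Ifitm2 at 69.8 ± 1.09, Bst2 at 53.0 ± 3.98 and Ly6e at 41.1 ± 2.32 CPM per kb (SD, n = 3), so the WT order depended on the length used. In Yme1l-/- that scale gave 321 ± 4.13 for Ifitm3, 160 ± 5.80 for Bst2, 71.0 ± 3.02 for Ifitm2 and 42.2 ± 1.11 CPM per kb for Ly6e (SD, n = 3), the same order as FPKM. On it, no neighbours among the 4 abundant genes overlapped in their libraries in either genotype. Mx1 and Ifitm1, at 0.242 ± 0.0628 and 0.161 ± 0.0938 CPM per kb (SD, n = 3) in Yme1l-/-, could not be separated.

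Most tested genes near the Ifitm cluster were not called higher, as was the case over the whole table, where 33.6% of loci were called higher and 34.1% lower. Within 200 kb of Ifitm3, 15 loci other than the Ifitm2 locus were tested, of which 1 was called higher, 8 were called lower and 6 were not called, with a median log2 fold change of -0.20 and none at least 2-fold higher. The single higher call was Ptdss2, a phosphatidylserine synthase gene, at 0.18. Around Bst2, 21 loci were tested, 5 of them higher, 8 lower and 8 not called, with a median of -0.14. Of the 21, 2 were at least 2-fold higher, where the share over all loci tested was 9.1%. They were Unc13a, at 1.21 ± 0.33, and B3gnt3, at 2.56 ± 0.17 (SE), which rose more than Bst2. Loci of chromosome 8 as a whole had a median of -0.32, and those of chromosomes 7 and 16, which carry the Ifitm and Mx genes, had medians of -0.01 and -0.02. With chromosome medians removed, Bst2 was at 1.90. Around Mx1 and Mx2 the only other tested loci within 200 kb were Bace2, called higher at 1.48 ± 0.24 (SE), and, next to Mx2, Ripk4, which had up to 753 fragments in a WT library and at most 1 in a Yme1l-/- library.

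**Figure D4:**
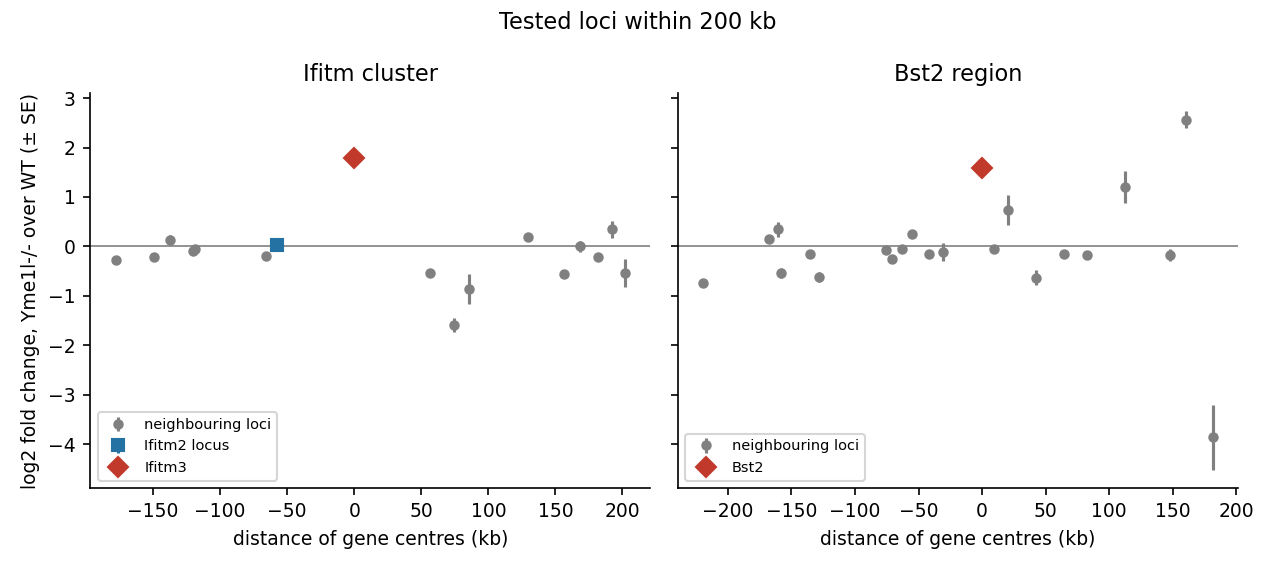
Log2 fold change (± SE) of tested loci within 200 kb of Ifitm3 and of Bst2 against the distance between gene centres in kb. Ifitm3 stands at 1.78 above its neighbours and above the merged Ifitm2 locus (blue square). In the Bst2 region 2 neighbours were called at least 2-fold higher, of which B3gnt3, at 2.56, lies above Bst2.

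The remaining Ifitm and Ly6 genes were mostly silent. Besides Ifitm5 in the merged locus, Ifitm10 was tested, in a locus merged with the abundant gene Ctsd, and was not called (log2 fold change -0.09 ± 0.05, SE), while Ifitm6 and Ifitm7 had at most 2 fragments in any library. Of 18 relatives of Ly6e encoded on chromosome 15, 4 were tested, 2 were called higher and 2 lower, where 33.6% of all loci tested were called higher and 34.1% lower. Lynx1, a modulator of nicotinic acetylcholine receptors, rose from 8.53 ± 0.153 to 29.3 ± 0.761 CPM (SD, n = 3), and Ly6f, with at most 4 fragments in a WT library, had a log2 fold change of 2.98 ± 0.56 (SE). Ly6a, known as the stem cell antigen Sca-1, fell by 1.10 and Ly6c1 fell by 0.59 on the log2 scale. Ly6a and Ly6c1 were also the 2 tested loci within 200 kb of Ly6e.

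Proteins known to process or place IFITM proteins were examined as a list of 7 genes, all of which were tested. Of these, 5 were called lower, 1 higher and 1 was not called, with a median log2 fold change of -0.24. Over all loci tested, 34.1% were called lower and 33.6% higher, with a median of -0.00, and these shares are the background for the lists that follow as well. Nedd4, whose product ubiquitinates IFITM3, had a log2 fold change of -0.94 ± 0.05, Setd7, a lysine methyltransferase gene, of -0.79 ± 0.06, and Zdhhc20, a palmitoyltransferase gene, of -0.70 ± 0.05 (SE). Vapa was at -0.24 and Zmpste24 at -0.13, and both were called lower. Osbp, which encodes an oxysterol-binding protein, rose by 0.22 ± 0.05 (SE), and Zdhhc1 was at 0.05. None of these changes reached 2-fold.

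Upstream of these genes, 16 of 19 loci for interferons, their receptors and ISGF3 signalling were tested, 11 of them higher and 3 lower, with a median log2 fold change of 0.53. Stat2 rose by 1.76 ± 0.08 and the merged Irf9 locus by 0.82 ± 0.05 (log2 fold change ± SE). Most receptor genes rose. The merged Ifnar2 locus rose by 0.64 ± 0.05, Ifngr2 by 0.59 ± 0.06 and Ifngr1 by 0.47 ± 0.05, and Ifnar1 fell by 0.19 ± 0.05 (SE) on the log2 scale. Usp18, a feedback inhibitor of the receptor, rose by 3.10 ± 0.14, and Socs1, another inhibitor, fell by 0.87 ± 0.18 (SE). Ifnb1 had at most 1 fragment, and Ifna4 and Ifng had none.

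Other factors that act at entry, membrane or release were tested for 15 of 18 loci, with 9 higher, 3 lower and a median log2 fold change of 0.36. The median was 0.55 without WT replicate 2, and with chromosome medians removed it was 0.20, with 7 higher and 5 lower. Lgals9, which encodes galectin-9, rose from 8.51 ± 1.22 to 189.7 ± 8.33 CPM (SD, n = 3) and Lgals3bp, the gene of a galectin-binding glycoprotein, from 14.1 ± 1.26 to 93.1 ± 7.47 CPM (SD, n = 3). The guanylate-binding protein gene Gbp2 had a log2 fold change of 2.67 ± 0.34 (SE). Serinc3, whose product lowers the infectivity of retroviral particles, rose by 0.36 ± 0.05, and Serinc5 fell by 0.18 ± 0.06 (SE). March8, which encodes a ubiquitin ligase that removes viral glycoproteins from the surface, was at 0.06 ± 0.05 (SE) and was not called, as was Ch25h, the gene of an enzyme that makes an antiviral oxysterol. March1 had no fragment in any Yme1l-/- library and was at least 5.44-fold lower.

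Factors that act after entry were tested for 20 of 21 loci, of which 17 were higher, 1 was lower and 12 were at least 2-fold higher (9.1% of all loci tested), with a median log2 fold change of 1.28. The 6 that rose most were Oas3 (4.71 ± 0.22), Trim30a (4.56 ± 0.25), Trim30d (3.29 ± 0.21), Oas2 (3.27 ± 0.27), Trim12c (3.13 ± 0.14) and Trim12a (2.78 ± 0.24, log2 fold change ± SE). The Oas genes encode enzymes that make the activator of RNase L. The genes of the Ifit family in this list did not follow. Ifit1 was at 0.00 and Ifit3 at -0.34, neither of them called, and Ifit2 fell by 0.62 ± 0.06 (SE) on the log2 scale. No test of the lists as sets was made.

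**Figure D5:**
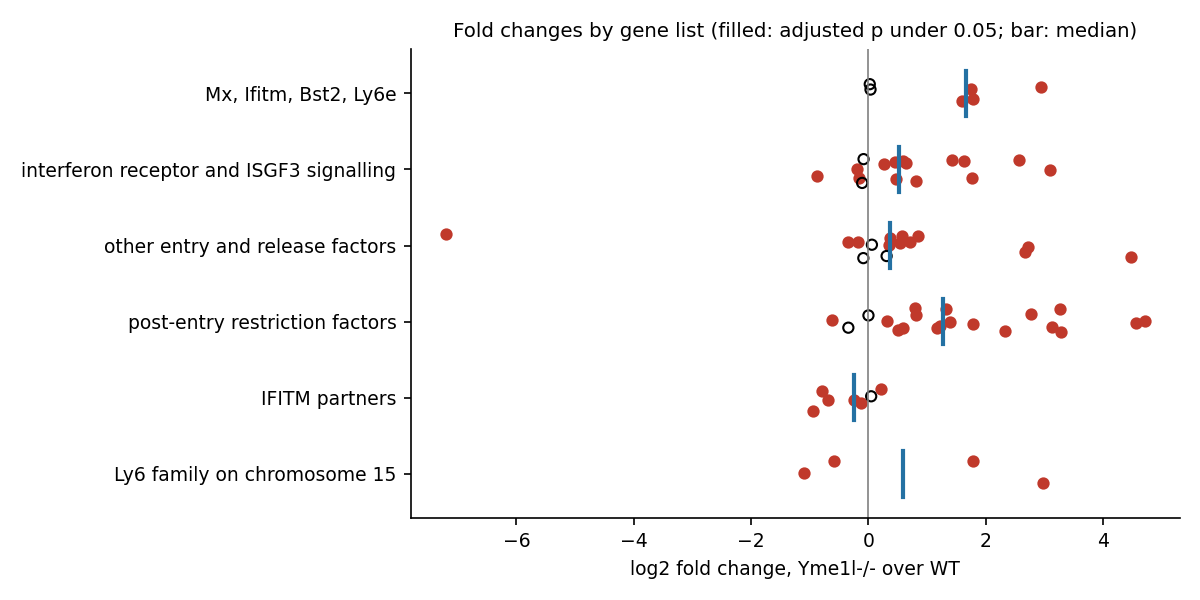
Log2 fold change (Yme1l-/- over WT) of each tested locus in 6 gene lists, filled where the adjusted p was under 0.05 and open otherwise, with the list median as a bar. The leftmost point is March1, which had no fragment in Yme1l-/- and whose fitted value depends on the prior count. Ifitm2 and Ly6e are the open points near 0 in the top row, whose median is 1.67.

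RefSeq start regions were available for 46 of 57 tested genes of the 7 genes described here and the signalling, entry and post-entry lists. The ISRE core was present for 22, of which 16 were called higher, 2 were called lower and 4 were not called, with a median log2 fold change of 1.67. Among the 24 without it, 18 were called higher, 4 lower and 2 were not called, with a median of 0.48. The core was more common in the post-entry list than in the signalling list, so these medians also compare lists of unlike make-up. In the signalling list the genes with the core were Stat2 (1.76), Irf2 (-0.08) and Socs1 (-0.87). The part of the list in these medians was not tested. The longer form was present for 10 genes, of which 7 were called higher, 1 was called lower and 2 were not called, with a median of 1.69. The gene called lower was Ncoa7, whose log2 fold change of -0.35 is that of a locus merged with Hint3. Some genes had more than 1 window, and a motif was counted as present where any of them held it. The 36 genes without the longer form had 27 higher, 5 lower and 4 not called, with a median of 0.59. Ifitm3, Bst2, Gbp2 and Trim30a are examples of genes with the longer form that rose. Ifit1 and Ifit3 also held the longer form but were not called, and Lgals9, with the core only, had the largest rise of the entry list.

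The loci most like each gene over the 6 libraries were found by the Euclidean distance between mean-centred log2 CPM among about 11610 single-symbol loci. For Ifitm3 these were Tap2 (distance 0.131), which encodes a subunit of the antigen peptide transporter, and Ifi35 (0.141), an interferon-induced gene. For Bst2 they were Slc46a3 (0.109) and Ampd3 (0.119), for Mx2 Gbp2 (0.471) and Lrrc3 (0.486), and for Mx1 Tmtc2 (0.589) and Syngr4 (0.607). The larger distances for the Mx genes go with their larger spread between WT libraries. For Ifitm2 the nearest were Med28 (0.0314) and Smurf2 (0.0412), and for Ly6e Rfk (0.0357) and Prr5 (0.05). These distances describe 6 libraries of 2 genotypes.

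Markers of the labelled cell type were present. All 11 fibroblast markers were found in the table, with a summed level of 10963 to 11520 CPM in WT and 6724 to 7207 CPM in Yme1l-/-, and of 9 tested, 7 were lower and 1 was higher. Thy1 and Lum were too low to be tested. Of 6 epithelial markers, the keratin gene Krt18 had a mean of 31.9 ± 1.12 CPM across WT and 0.0262 ± 0.0300 CPM across Yme1l-/- libraries (SD, n = 3), and the summed level was 33.2 to 35.1 CPM in WT against 0.334 to 0.657 CPM in Yme1l-/-. The 5 endothelial markers summed to 0.888 to 1.44 CPM in WT and 1.67 to 2.00 CPM in Yme1l-/-, with Emcn at 0. The part of these marker differences in the values of Ifitm3, Bst2, Mx1 and Mx2 was not tested, and in bulk RNA fewer cells of a type and less RNA per cell cannot be told apart.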

How the data were processed

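RNA of 6 cultures was sequenced from stranded poly(A)-selected libraries as read pairs. According to the study and the submitters' processing notes, the authors mapped reads to mm10 (GRCm38) with HISAT2 2.0.4, assembled transcripts with StringTie 1.3.3 and compared genotypes with Cuffdiff 2.2.1. The deposited count table holds raw fragment counts per assembled locus, without normalization, and how fragments with several positions were counted is not given in the sources used here. Genes that overlap share a locus in the table. The authors' deposited comparison table holds FPKM, combined into 1 value per genotype, which was used as a level only, and columns of the authors' own test (log2 ratios, p-values, q-values), which were not used.

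The counts were tested with edgeR 4.0.16 under R 4.3.3. Loci were kept with filterByExpr (minimum count 10), libraries were scaled with TMM factors, and genotypes were compared with the quasi-likelihood test (robust, two-sided, no covariate) over all loci, with Benjamini-Hochberg adjustment and a threshold of 0.05. The script was tested on simulated data. Log2 fold changes are Yme1l-/- over WT. Levels are CPM (counts per 1e6 fragments). Ratios within a library had 0.5 counts added and were compared by an exact permutation test. Positions, exons and transcripts were from GENCODE M21 (GRCm38), which gave a position for 13639 of the tested loci. Intervals and limits cover counting error or the spread between these cultures, and copies made by PCR were not identified.

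The genes and lists, the ISRE motifs and the neighbour window were chosen with earlier results of these data known. Up to 6 called genes per list were to be named by size of change. In the signalling and entry lists this order was not kept, and some larger changes were not named. The other genes named were chosen after their values were seen. The 2 nearest loci were named for each gene. Alternatives were RLE and upper-quartile scaling, DESeq2 1.42.0, a filter that only drops loci with a total of 0, a filter that asks for 10 counts in each library, removal of chromosome medians, a block for the replicate number, and leaving out each culture. Within a genotype, cultures differed beyond sampling noise (chi-square per degree of freedom at least 7.91). The values of 1 listed gene are not reported here.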

Additional observations from a re-analysis of the deposited data

How the results depend on the processing

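The calls of Ifitm3 and Bst2 held in all 13 alternatives, and those of Mx1 and Mx2 in the 12 in which they were tested. With at least 10 counts in every sample, neither Mx gene was tested, and 2 members of the set, Ifitm3 and Bst2, were called. With chromosome medians removed, Ly6e was called lower, at -0.56. Leaving out a culture moved the log2 fold change of Ifitm3 from 1.71 to 1.83, of Bst2 from 1.53 to 1.62, of Mx1 from 1.33 to 2.58, of Mx2 from 2.62 to 3.89, of Ifitm2 from -0.0083 to 0.0503 and of Ly6e from -0.0106 to 0.0637. The signs of Ifitm2 and Ly6e changed there, and neither was called. The ratio of Ifitm1 to Ifitm3 went from -0.86 to 0.86 and changed sign without WT replicate 2 and without Yme1l-/- replicate 1 or 2, and that of Ifitm1 to Ifitm2 went from 0.84 to 2.67. The list medians of the IFITM partners and the Ly6 relatives (-0.24 and 0.60) were -0.41 and 0.00 with chromosome medians removed. That of the Ly6 relatives rests on 4 tested loci in the main fit. It was -0.59 over the 3 loci tested with at least 10 counts in every sample, and 1.71 over the 14 tested with no filter. The list of other Ifitm genes, which through Ifitm5 also holds the merged Ifitm2 locus, gave 0 to 1 calls, with the call made without Yme1l-/- replicate 1. Counts over all loci ranged from 8513 to 10051. Ifitm1 was tested only without the filter on low counts. Depth limits Mx1, Mx2 and Ifitm1, whose WT libraries held at most 17, 27 and 6 fragments.

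Under a block for the replicate number (paired fit), 9794 loci and the same 4 genes were called, with Mx2 at 2.99 and Mx1 at 1.75 on the log2 scale. Cultures that share a number had deviations with correlations of 0.14, -0.09 and 0.05, and 3 of the 6 libraries correlated best with their own number, so the numbers were not taken as pairs.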
